A study of Homo sapiens with 32 samples.

Results

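Peaks of N6-methyladenosine (m6A) on chromatin-associated RNA were compared between control cells of ovarian and of colorectal cancer origin. The 8 control MeRIP libraries, of 32 libraries in the series, are represented by 6 of the 12 peak lists. MeRIP is the enrichment of RNA fragments with an m6A antibody followed by sequencing. OVCAR8 and SKOV3 are ovarian cancer lines, titled shControl, and each had a list for replicate 1 and a list for replicate 2. LOVO and RKO are colon adenocarcinoma lines, titled Control, with 2 replicates each but a single list per line. All peak names in the LOVO and RKO lists (36288 and 37401 as deposited) cite replicate 1, so whether replicate 2 contributed is unknown, and each colorectal value below may rest on a single library. All 4 control groups carry the genotype WT in the labels, and the knockdown groups carry METTL3 knockdown. All are established human cell lines, and no label says that replicates were separate cultures, so the spread between replicates may be technical. The knockdown libraries of the same 4 lines, directed at METTL3, were used only to look for the regions again. Cells in culture of 2 lines per tissue are the whole basis of the comparison, so "ovarian" and "colorectal" stand below for these lines.

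A region is a stretch of merged, overlapping peaks on the same strand, from peaks with a deposited fold enrichment or score of at least 3 on chromosomes 1 to 22 and X. An ovarian region held a peak in all 4 ovarian lists and in neither colorectal list, and a colorectal region held a peak in both colorectal lists and in no ovarian list. Of 68537 merged regions, 1187 (1.73%) were ovarian regions and 6861 (10%) were colorectal regions. A further 7002 held a peak in all 6 lists and are called core regions. These counts follow from the rule and were not tested.

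m6A is written during transcription by a methyltransferase complex in which METTL3 is the catalytic subunit, mostly at adenosines in the sequence GGACT and its relatives. On chromatin-associated RNA, which holds unspliced transcripts, long non-coding RNAs and RNAs from repeats, the mark can be read by nuclear proteins such as YTHDC1 and is linked to the turnover of the RNA. Tissue of origin sets which genes are transcribed, and a transcript must be present before a peak on it can be called. The input libraries were not analysed here, so more m6A per transcript and more transcript cannot be told apart in any peak below.

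A minority of tissue regions touched a promoter (7.33% of ovarian, 2.36% of colorectal and 7.21% of core regions), and 4 such promoters are given here as examples of sequence at tissue regions. Of 27195 promoter windows from RefSeq (GRCh38.p14, 250 bases before to 50 after a gene's start), ovarian regions overlapped 101, colorectal regions 184 and core regions 607, on either strand. The letters GGACT occurred on either strand in 48.5%, 49.5% and 48.4% of those windows, against 44.2% of all windows. The windows printed were chosen among 15 ovarian and 16 colorectal windows, by the highest rank of peak strength in the weakest list. These had GGACT on the gene's own strand and at least 50 bases covered on that strand. The motif is therefore there by choice. Windows at very wide regions, and those on a chromosome set aside beforehand, had been left out. The 15 and 16 are thus not all windows with these properties. A window of SLX1B-SULT1A4 that ranked above both ovarian ones is not printed because that locus is duplicated. Capitals mark GGACT, read 5′ to 3′ on the gene's strand. In LINC00472 and MIR130AHG the marked letters lie outside the ovarian region, 144 and 64 bases from its edge, so they are not part of the peak. In RTKN and TMEM179B they lie inside the colorectal region. Over the windows to choose from, GGACT lay inside the region in 3 of 15 ovarian and 11 of 16 colorectal windows, a difference that was not tested.
LINC00472 (chr6:71420696-71420995, minus strand, a long non-coding RNA): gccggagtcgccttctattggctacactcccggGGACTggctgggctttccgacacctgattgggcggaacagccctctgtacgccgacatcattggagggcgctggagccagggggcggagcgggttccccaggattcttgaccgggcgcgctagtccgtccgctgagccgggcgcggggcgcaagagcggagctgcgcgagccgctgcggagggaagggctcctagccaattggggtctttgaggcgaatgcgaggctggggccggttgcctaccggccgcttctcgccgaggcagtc
MIR130AHG (chr11:57638126-57638425, plus strand, host gene of a microRNA): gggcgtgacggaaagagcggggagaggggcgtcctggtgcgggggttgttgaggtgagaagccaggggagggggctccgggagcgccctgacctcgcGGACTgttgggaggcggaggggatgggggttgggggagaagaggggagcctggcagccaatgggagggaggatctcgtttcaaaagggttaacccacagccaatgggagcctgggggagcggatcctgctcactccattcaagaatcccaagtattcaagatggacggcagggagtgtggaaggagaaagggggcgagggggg
RTKN (chr2:74441888-74442187, minus strand, a protein-coding gene): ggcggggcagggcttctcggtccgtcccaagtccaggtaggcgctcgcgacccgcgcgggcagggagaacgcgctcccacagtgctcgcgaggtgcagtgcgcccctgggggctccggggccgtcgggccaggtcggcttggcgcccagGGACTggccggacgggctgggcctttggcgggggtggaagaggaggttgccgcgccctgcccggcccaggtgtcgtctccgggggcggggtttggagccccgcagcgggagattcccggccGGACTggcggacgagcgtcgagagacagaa
TMEM179B (chr11:62787152-62787451, plus strand, a membrane protein gene): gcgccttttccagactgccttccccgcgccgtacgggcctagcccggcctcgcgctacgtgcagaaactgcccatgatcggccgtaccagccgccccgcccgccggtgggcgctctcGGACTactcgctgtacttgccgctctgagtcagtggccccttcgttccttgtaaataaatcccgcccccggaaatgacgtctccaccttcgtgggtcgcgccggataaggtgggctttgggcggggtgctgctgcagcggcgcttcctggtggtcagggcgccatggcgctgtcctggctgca

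The ovarian region over LINC00472 spanned chr6:71420325-71420814 and had folds of 8.36 and 8.79 in OVCAR8 and of 9.13 and 8.98 in SKOV3. The region at MIR130AHG, chr11:57638291-57639195, had folds of 6.30 and 8.63 in OVCAR8 and of 25.1 and 21.6 in SKOV3. Both were found again in 4 of 4 ovarian knockdown lists, and also in 1 of the 2 colorectal knockdown lists. The colorectal region over RTKN, chr2:74441388-74442163, had scores of 16.9 in LOVO and 10.8 in RKO, and that over TMEM179B, chr11:62786714-62787328, had 10.3 and 8.29. Neither was found in an ovarian knockdown list. RTKN was found in 1 and TMEM179B in 2 of the 2 colorectal knockdown lists. Folds and scores are the authors' own values and were set against each other only within a list.

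The lists entered the comparison with unequal lengths. The ovarian lists held 25999, 26209, 26286 and 26240 peaks, and those of LOVO and RKO held 36242 and 37398. Between 7.93% and 9.83% of the deposited ovarian peaks lay below the minimum of 3, while no colorectal score did. Averaged by line, the lists held 26184 ± 112 ovarian and 36820 ± 817 colorectal peaks (SD, n = 2 lines each). An exact two-sided permutation over the 4 lines gave p = 0.333, the smallest that 2 lines against 2 allow. The share of peaks in protein-coding genes was 86.3%, 86.2%, 82.9% and 82.9% in the ovarian lists and 86.2% and 88.4% in the colorectal ones, with the same exact permutation p of 0.333 over lines. Median peak width was 306, 307, 334 and 340 bp in the ovarian lists and 299 and 315 bp in the colorectal ones, so RKO lay between OVCAR8 and SKOV3 (exact permutation p = 0.667). Because ovarian lists were deposited per library and colorectal lists per group, tissue and the way the lists were made cannot be told apart.

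The defining markers of each tissue were few in the lists. Of the 8 ovarian and Muellerian markers, WT1, SOX17, EMX2, MSLN and FOLR1 had no control peak, and PAX8, a Muellerian transcription factor, had 6, 6, 2 and 2 ovarian peaks and 1 and 0 colorectal peaks. MUC16, which encodes the CA125 antigen, had 4 and 4 peaks in OVCAR8 and none in the other control lists. MECOM, a transcription factor gene, had 14 and 13 peaks in OVCAR8, none in SKOV3 and 12 and 11 in LOVO and RKO. Of the 8 intestinal markers, VIL1, KRT20 and GPA33 had no control peak, CDX2 had 4 peaks in LOVO and 3 in RKO, and CDX1, HNF4A, CDH17 and LGR5 had 2, 5, 4 and 3 peaks in LOVO and none in any other control list. Intestinal markers were thus a feature of LOVO more than of RKO. Of the blood and endothelial markers, PTPRC, CD3E, SPI1, VWF and CDH5 had no control peak and PECAM1 had 1 in each SKOV3 list. METTL3 itself had 0 to 2 peaks in every control list and 0 to 3 in every knockdown list, and a peak count does not measure its RNA.

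The ovarian lines shared about as much with each other as with the colorectal lines. Of the OVCAR8 peaks, 46.1% were overlapped in SKOV3, against 52.6% in LOVO and 53.7% in RKO. Of the SKOV3 peaks, 44.7% were overlapped in OVCAR8, against 53.0% in LOVO and 55.0% in RKO. The longer colorectal lists offer more peaks to overlap, so the order was read again with lists of equal length. Replicate lists of a line overlapped by 87.4% to 89.9%, so every value between lines lay far below the replicate level. The colorectal lines differed from this pattern: 64.1% of LOVO peaks were overlapped in RKO and 59.7% of RKO peaks in LOVO, against 35.9% to 39.7% in an ovarian line.

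With each list reduced to its 25999 strongest peaks, the regions shared by OVCAR8 and SKOV3 made up 28.2% of the regions of either line. The 4 pairs of an ovarian with a colorectal line gave 26.4% to 28.1%, and LOVO with RKO gave 41.4%. OVCAR8 with SKOV3, at 28.2%, was thus close to SKOV3 with LOVO, the highest mixed pair at 28.1%. With all peaks the ovarian pair lay further above the highest mixed pair (28.3% against 27.4%), as it did at a minimum of 5 (25.3% against 24.5%) and with no minimum (30.6% against 28.8%). When only the replicate 1 lists were used for the ovarian lines, OVCAR8 with SKOV3 gave 28.257% and SKOV3 with LOVO 28.263%. With only the replicate 2 lists the same pairs gave 28.236% and 28.247%. No test was made, since 4 lines can be paired in only 3 ways.

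**Figure D1:**
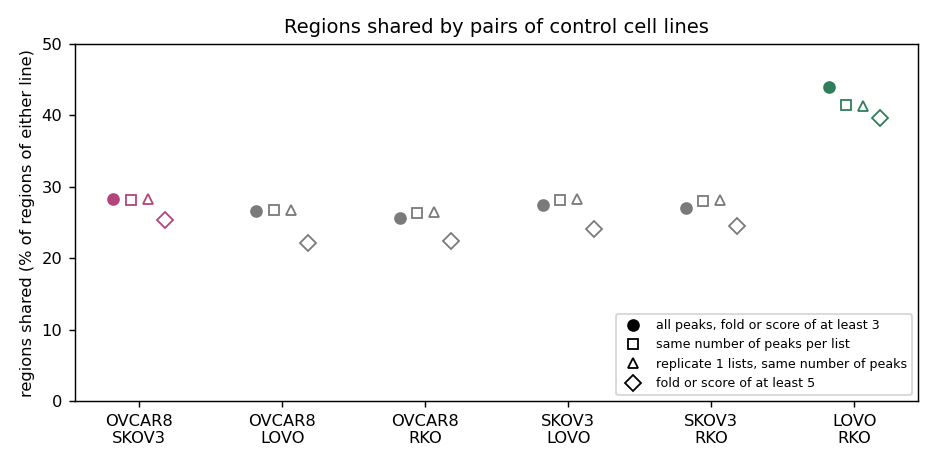
Regions shared by each pair of control lines, as a percent of the regions of either line (y axis), for the 6 pairs (x axis) under 4 settings (symbols). LOVO with RKO sits between 39.6% and 43.9%, and every other pair between 22.2% and 28.3%, with OVCAR8 and SKOV3 close to the mixed pairs.

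Most regions that were absent from the other tissue belonged to a single line. Among regions without a colorectal peak and with concordant ovarian replicates, 6335 were in OVCAR8 alone, 6342 in SKOV3 alone and 1187 in both, which is 8.56% shared. Among regions without an ovarian peak, 9020 were in LOVO alone, 10603 in RKO alone and 6861 in both, which is 25.9% shared. The 1187 ovarian regions were about as many as the regions that SKOV3 shared with RKO alone (1203), with LOVO alone (1046), or that OVCAR8 shared with LOVO alone (1012) or RKO alone (994). OVCAR8 and SKOV3 thus shared about as many regions alone as a mixed pair did, whereas LOVO and RKO shared more. A further 10645 regions were present in only one replicate of an ovarian line and entered none of these classes.

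**Figure D2:**
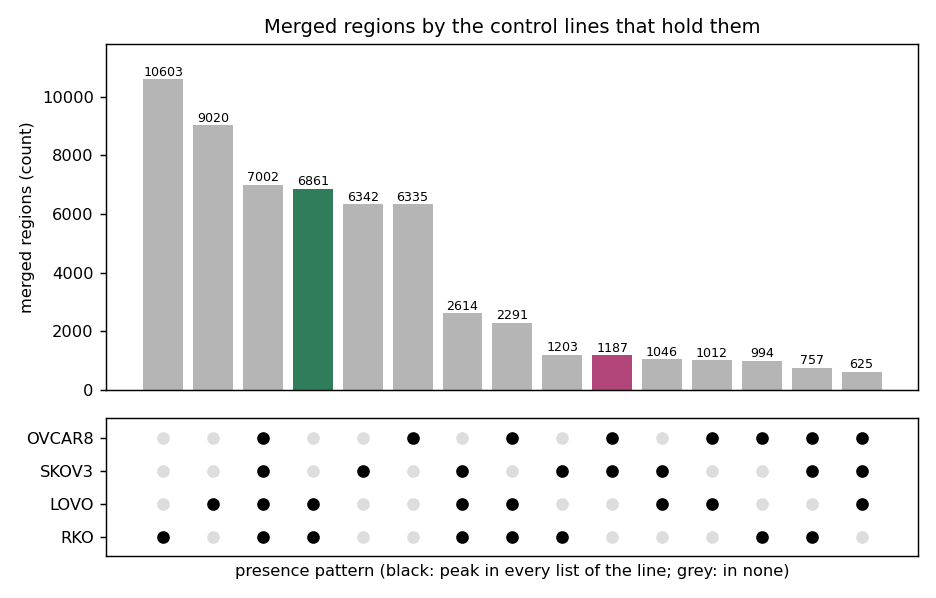
Number of merged regions (bars, y axis) for each of the 15 combinations of control lines (dots below, black where every list of the line holds a peak, grey where none does). The ovarian regions (1187) stand level with the 4 mixed pairs (994 to 1203), and the colorectal regions (6861) stand level with the core regions (7002). List lengths were not made equal here, and the 10645 regions with discordant replicates are left out. The number of lists that had to match differs between bars.

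The unequal list lengths bear on the 2 counts. With 25999 peaks per list the ovarian regions numbered 1756 and the colorectal regions 3781, so the excess of colorectal regions fell but kept its direction. The rule also asks for 4 lists on the ovarian side and 2 on the colorectal side, and leaving out a colorectal list changes both counts: without LOVO the regions numbered 1825 and 17630, and without RKO 1981 and 16312. Regions just inside the minimum had a lowest ovarian fold of 3.02, in HCFC1 and SELENOF. A further 425 regions would have been ovarian regions without the minimum of 3, of which the nearest lay in SIPA1L3 with a lowest fold of 2.999. On the colorectal side the weakest members lay in NSD2 and HDAC4 with scores of 3.0004, and 6398 of the 6861 had no ovarian peak at any fold.

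The knockdown lists, which the rule did not use, held the tissue regions mostly on the same side. Ovarian regions were found in 62.5% and 65.5% of cases in the lists labelled OVCAR8 knockdown and in 88.2% and 88.6% in those labelled SKOV3 knockdown, but in 18.96% in LOVO and 32.8% in RKO knockdown. Every ovarian list lay above both colorectal lists. Colorectal regions were found in 0.0875%, 0.160%, 3.80% and 4.33% of cases in the ovarian knockdown lists and in 54.7% and 28.7% in those of LOVO and RKO, again without overlap. Core regions were found in 79.9%, 80.7%, 95.8% and 95.9% of cases in the ovarian lists and 91.0% and 83.8% in the colorectal ones, so the groups overlapped there.

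The difference between recovery of ovarian and of colorectal regions was 74.1 ± 11.9 percentage points in ovarian lists (SD, n = 4 lists) and -15.8 ± 28.1 in colorectal lists (SD, n = 2 lists). The gap of 89.9 points had an exact two-sided permutation p of 0.133, the smallest that 4 lists against 2 allow. Replicate lists of a line are not independent. With the lists of a labelled line averaged first, the exact permutation p was 0.333, the smallest possible. Recovery of core regions gave an exact permutation p of 0.8 over the lists. The regions were chosen from controls of these same lines, so their recovery is not evidence for tissue beyond the lines. All lists of a tissue had to lack the other tissue's regions in the controls, and the ovarian knockdown lists were also shorter (13879 to 22199 peaks) than the colorectal ones (31060 and 34015). The whole tissue pattern, present in all lists of 1 tissue and absent from all of the other, was repeated in the knockdown lists by 326 ovarian regions (27.5%) and 1223 colorectal regions (17.8%). The opposite pattern was taken by 3 ovarian and 0 colorectal regions.

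The labels of some knockdown lists went against their peaks. The lists labelled OVCAR8 knockdown had 93.9% to 94.4% of their peaks overlapped in SKOV3 controls and 68.2% to 68.5% in OVCAR8 controls. Those labelled SKOV3 knockdown had 80.9% to 82.4% overlapped in OVCAR8 controls and 57.1% to 57.8% in SKOV3 controls. Both lines are ovarian, so the comparison of tissues does not depend on which line these lists came from. The list labelled RKO knockdown stood apart, with 45.1% of its peaks overlapped in RKO control and 43.0% in LOVO control. It was the only knockdown list of a colorectal line that held a larger share of the ovarian regions (32.8%) than of the colorectal regions (28.7%). In number, this list held 389 ovarian and 1967 colorectal regions. Without it the gap in recovery was 109.8 points rather than 89.9, with 1 colorectal list left.

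**Figure D3:**
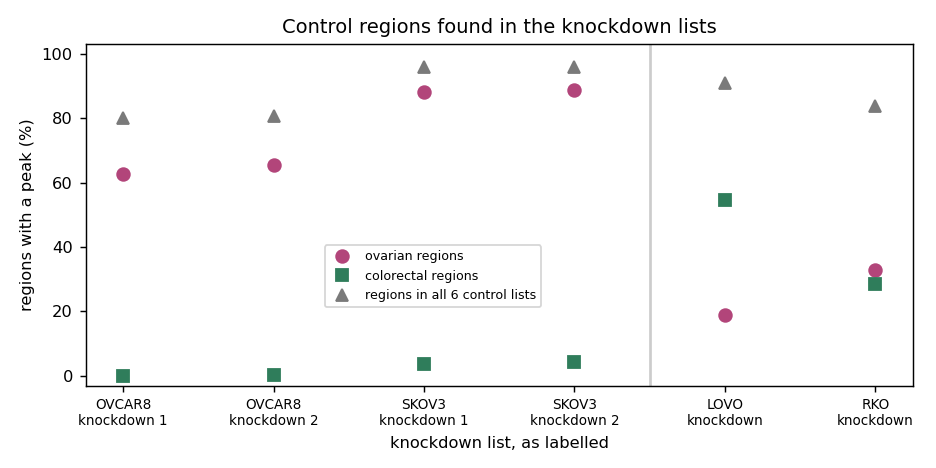
Percent of ovarian regions (circles), colorectal regions (squares) and core regions (triangles) with a peak of fold or score of at least 3 (y axis) in each of the 6 knockdown lists (x axis, as labelled; the vertical line separates tissues). Circles lie at 62.5% to 88.6% on the ovarian side and at 18.96% and 32.8% on the colorectal side, and squares at 4.33% or less against 28.7% and 54.7%.

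The ovarian and colorectal regions lay in different kinds of places. Between genes lay 12.4% of ovarian regions, 4.61% of colorectal regions, 2.63% of core regions and 8.86% of all merged regions. In genes that were neither protein-coding nor long non-coding, such as pseudogenes and ribosomal RNA genes, lay 5.39% of ovarian and 1.81% of colorectal regions, against 2.16% of all. Among the regions in a single gene with a known start, 13.6% of ovarian regions lay within 1 kb of that start, against 6.14% of colorectal, 9.26% of core and 7.24% of all such regions. The shares overlapping a promoter window, given above, were likewise higher for ovarian than for colorectal regions, with core regions close to the ovarian share. The median width was 430 bp for ovarian, 328 bp for colorectal and 855 bp for core regions. Width is not free of the rule, since merging peaks of 4 or 6 lists can widen a region more than merging those of 2. Core regions also held stronger peaks, with a median percentile rank of 69.6 against 49.9 in ovarian and 47.3 in colorectal regions. What sets the width was not tested.

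**Figure D4:**
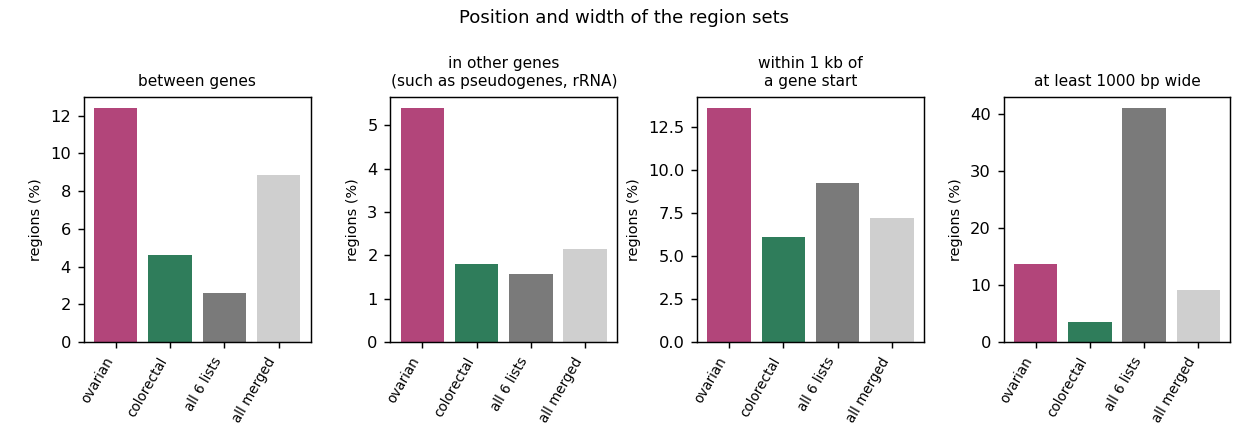
Percent of regions (y axis, from 0) between genes, in other genes, within 1 kb of a gene start, and at least 1000 bp wide, for ovarian regions, colorectal regions, core regions (all 6 lists) and all merged regions. Ovarian regions exceed colorectal regions in all 4 panels, and core regions exceed them in width alone, at 41.0% against 13.6%.

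Ovarian regions were also more often on the strand opposite to the gene. Of 667 ovarian regions in a single gene of known strand, 84 (12.6%) lay on the opposite strand, compared with 5.46% of 4669 colorectal and 2.85% of 4698 core regions. Among regions in a single protein-coding gene of known strand, 88.5% of ovarian and 93.1% of all merged regions lay on the gene's own strand. For colorectal and core regions that share was 94.7% and 97.2%. PDPK1, LONP1 and CYKILR, described below, held 25 of the 84. Regions of 1 gene are not independent of each other, and these shares were not tested.

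Ribosomal RNA loci took the strongest ovarian regions. Ranked by the weakest list, 4 of the 5 strongest ovarian regions lay on chromosome 21 in and beside the 45S ribosomal RNA genes. The region over RNA45SN3 and RNA28SN3 (chr21:8396670-8401973) had folds of 38.0 and 21.1 in OVCAR8 and 40.8 and 37.7 in SKOV3. Those over RNA45SN2 (chr21:8213752-8218927), RNA45SN1 (chr21:8440833-8446208) and the pseudogene LOC110467529 (chr21:8257802-8260947) had folds between 15.1 and 25.0. All 4 were found in 4 of 4 ovarian and in neither colorectal knockdown list. The 45S genes are near-identical copies, so a read could be counted at any of them, and the protocol in the labels starts from RNA freed of ribosomal RNA or from mRNA. The level of ribosomal RNA left in each library was not tested.

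In all, the ribosomal genes and their stretch of chromosome 21 (chr21:8155988-8496572) held 94, 95, 49 and 50 peaks in the ovarian control lists and 14 and 17 in the colorectal ones. They made up 31 of the 1187 ovarian regions, 1 of the 6861 colorectal and 9 of the 7002 core regions. Chromosome 21 held 3.08 times its share of all merged regions among the ovarian regions, with 28 of its 54 ovarian regions ribosomal. Chromosomes 16, 19 and 17 held 2.33, 1.75 and 1.55 times their share (116, 116 and 100 regions), and chromosome 14 held 0.247 times its share (9 regions). Among core regions, chromosomes 16, 19 and 17 also exceeded their share, at 1.55, 1.32 and 1.29 times. Chromosomes 21 and 14 did not, at 0.920 and 0.997 times. The remaining region of the strongest 5 was 219 bp in an overlap of PTPRD, a receptor tyrosine phosphatase gene, and the pseudogene RN7SL5P (chr9:9442065-9442283), with folds of 18.7 to 19.1 in all 4 lists. RN7SL5P is a copy of the signal recognition particle RNA, a family with many near-identical members, so its assignment is uncertain.

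The strongest colorectal regions were unlike these. The first lay in MLYCD, which encodes malonyl-CoA decarboxylase (chr16:83920820-83921346), with scores of 22.6 in LOVO and 16.1 in RKO. The others lay in ATP9B and LOC105372226 (20.0 and 15.7), in the pseudogene LOC102724093 (29.5 and 15.5), in IL7 and MITA1 (19.4 and 15.5), and between genes on chromosome 19 (chr19:50491468-50492165, 18.7 and 16.9). None of the 5 was found in an ovarian knockdown list, and each was found in 1 or both colorectal knockdown lists.

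The regions were spread over many genes. Of 889 ovarian regions that overlapped a single gene body, spread over 612 genes, 478 genes (78.1%) held 1 region each and 61 genes held 265. Of 5711 colorectal regions in 3479 genes, 2253 genes (64.8%) held 1 each and 534 genes held 2074. A tissue region was usually not the sole sign of its gene: 68.4% of the ovarian regions lay in a gene with a peak elsewhere in a colorectal list, and 71.4% of the colorectal regions in a gene with a peak in an ovarian list. Only 175 of the 612 and 1117 of the 3479 genes had no single-gene peak of the other tissue. Both kinds of region occurred in 118 genes, for example RNF213, a ubiquitin ligase gene, with 3 ovarian, 7 colorectal and 7 core regions, and C2CD3, a centriole gene, with 4 ovarian, 1 colorectal and 2 core regions.

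The genes with most ovarian regions fell into 2 kinds. In the first kind the colorectal control lists were empty. AMOTL1, an angiomotin family gene of cell junctions and Hippo signalling, had 16, 18, 12 and 11 ovarian peaks, 0 in LOVO and 0 in RKO, and 11 ovarian regions. SLC35F3, a solute carrier gene, had 24, 24, 12 and 12 against 0 and 0, with 9 regions. ZNF804A, which encodes a zinc finger protein, had 9, 12, 12 and 13 against 0 and 0. PTPRM and PTPRS, which encode receptor tyrosine phosphatases, also had no colorectal control peak. PTPRM had 8 and 7 peaks in OVCAR8 and 29 and 27 in SKOV3, and PTPRS had 10, 9, 11 and 12. The LOVO knockdown list had 0 peaks in all of these genes. The list labelled RKO knockdown had 9 in AMOTL1 and 22 in PTPRS, but 0 in SLC35F3, ZNF804A and PTPRM. SLC35F3 was higher in OVCAR8 and PTPRM in SKOV3, so the lines of a tissue also differed in genes that separated the tissues.

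In the second kind the colorectal lists held peaks as well, but fewer. PLEC, which encodes the cytoskeletal linker plectin, had 15, 19, 19 and 22 ovarian peaks and 3 and 7 colorectal peaks. ARHGAP23, a GTPase-activating protein gene, lay close to the first kind with 21, 23, 19 and 17 against 0 and 2. All 10 genes described on the ovarian side had every ovarian list above both colorectal lists after scaling for list length.

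In 3 of the 8 ovarian-side genes with a known strand, the ovarian regions were largely antisense. PDPK1, the kinase that activates AKT, had 20, 18, 21 and 20 ovarian peaks and 5 and 2 colorectal peaks over chr16:2538021-2603188. Of these, 18, 15, 17 and 16 ovarian and 3 and 1 colorectal peaks, and 11 of its 12 ovarian regions, were on the strand opposite to the gene. LONP1, a mitochondrial protease gene, had 19, 21, 22 and 20 against 6 and 9 peaks, and 8 of its 10 ovarian regions were on the opposite strand. There its opposite-strand peaks numbered 9, 10, 9 and 10 against 1 and 1, whereas peaks on its own strand numbered 10, 11, 13 and 10 against 5 and 8. CYKILR, a long non-coding RNA gene, had 29, 34, 17 and 18 peaks against 0 and 0, with 6 of its 7 regions on the opposite strand. In OVCAR8 most CYKILR peaks were on the gene's strand (21 and 24) and in SKOV3 most were on the other (16 and 16). PDPK1 has a near-identical copy nearby, so its peaks are uncertain.

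The genes with most colorectal regions showed the same split. BAZ2B, which encodes a bromodomain protein, had no ovarian control peak and 15 and 20 peaks in LOVO and RKO, with 13 colorectal regions. The long non-coding RNA gene DLEU1 had 0 in every ovarian list and 14 and 18 in LOVO and RKO. Neither gene had a peak in an ovarian knockdown list, while LOVO and RKO knockdown held 4 and 13 for BAZ2B and 7 and 0 for DLEU1. The 0 of DLEU1 was in the list labelled RKO knockdown, which stood apart.

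The other colorectal genes had some ovarian peaks. SCAPER, a cyclin A-associated protein gene, had 3, 2, 12 and 15 ovarian peaks and 29 and 37 colorectal peaks, and DIS3L2, an exoribonuclease gene, had 8, 8, 7 and 10 against 24 and 24. RALGAPA2, which encodes a Ral GTPase-activating subunit, had 1 in every ovarian list against 17 and 11. The Rab GTPase-activating gene RABGAP1L had 6, 5, 2 and 3 against 18 and 16. The glycosyltransferase gene B4GALNT3, the kinase gene WNK2 and the acyltransferase gene AGPAT3 had no OVCAR8 control peak, 1 to 4 in the SKOV3 lists, and between 11 and 18 in the colorectal lists. EEA1, which encodes a tether of early endosomes, had 4, 4, 1 and 0 against 14 and 15. DHRSX, a dehydrogenase gene in the pseudoautosomal region, where 2 chromosome copies cannot be told apart, had 3, 2, 1 and 0 against 13 and 12. Every ovarian list lay below both colorectal lists in all 11 genes described. In the 10 of these genes with a known strand, every colorectal region lay on the gene's own strand.

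**Figure D5:**
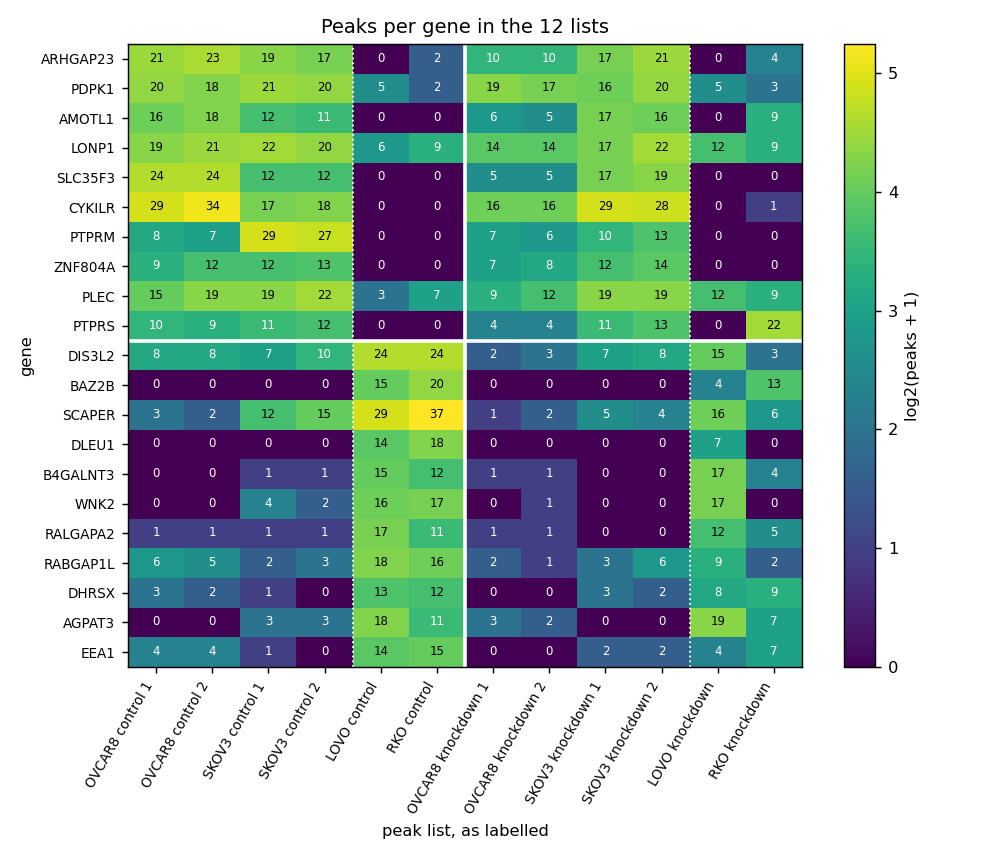
Peaks per gene (numbers; colour is log2 of peaks + 1) for 10 of the 12 genes with most ovarian regions (upper block) and 11 of the 12 with most colorectal regions (lower block) in the 6 control and 6 knockdown lists, as labelled. The upper block is dark in LOVO and RKO control, with 0 to 9 peaks, and the lower block is dark in OVCAR8 and SKOV3 control, with 0 to 15; PTPRS has 22 peaks in RKO knockdown after 0 in RKO control.

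A test of peaks per gene over all genes called no gene. Among 3826 genes with a mean of at least 2 scaled peaks, limma on log2(scaled peaks + 0.5) with 2 lines against 2 found 0 (0%) with more and 0 with fewer ovarian peaks at an adjusted p under 0.05 (smallest adjusted p 0.296). At an unadjusted p under 0.05, limma had 128 genes (3.35%) with more ovarian and 204 (5.33%) with more colorectal peaks. Every ovarian list lay above both colorectal lists in 555 genes (14.5%) and below both in 749 (19.6%). The genes named above were chosen from the same lists, so their lack of overlap is not evidence beyond the rule.

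The sizes of the differences in that test were large for genes with an empty side. CYKILR had a log2 difference of 5.78 (SE 0.44, limma adjusted p = 0.296), AMOTL1 of 5.05 (SE 0.44) and BAZ2B of -4.84 (SE 0.44). These depend on the added 0.5, since a group was at 0. Where both sides had peaks, PLEC differed by 2.38 (SE 0.48) and DIS3L2 by -0.99 (SE 0.34), with limma adjusted p of 0.554 and 0.562. When the 6 lists entered with the line as a random block, limma called 17 genes with more ovarian and 33 with more colorectal peaks. Among them were AMOTL1, CYKILR, SLC35F3, BAZ2B and DLEU1, which the region rule had picked from the same lists. Lists of a line were close to copies in that fit (correlation 0.9465), and the lines stayed at 2 per tissue. These calls therefore do not rest on more independent samples. On simulated lists with a spread between lines of 0.75 on the log2 scale, the test with 2 lines against 2 found 6.5% of 4-fold and 84.5% of 16-fold changes. With no spread between lines it found 80.5% and 100%. Both spreads were set by hand, not estimated from these lists, and changes were placed only in genes above the test's minimum. The shares found are therefore not the power of the test on these data.

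Gene groups were described by their tissue regions, beside 1.65% ovarian and 10.6% colorectal among all 53779 merged regions in a single gene. No gene of any group was called by limma in the chosen setting, and no group was tested. The fit with the line as a random block, which adds no independent samples, called SNHG14 (limma adjusted p = 0.048). The intestinal lineage group held 0 ovarian and 17 colorectal regions of 107 (15.9%). HNF4G, an intestinal nuclear receptor, had 1, 0, 0 and 0 ovarian peaks and 8 and 6 colorectal ones. EPHB2, an ephrin receptor of the crypt that is also a Wnt target, had 0, 1, 6 and 7 against 11 and 11. The group's peaks summed to 15 to 18 per ovarian list, 92 in LOVO and 33 in RKO, so LOVO was the higher of the colorectal lines. The Muellerian group had 1 ovarian and 4 colorectal regions of 85, with 25 to 38 peaks in every control list. Its ovarian region lay in NR2F2, an orphan nuclear receptor gene, and MECOM and TNNT1 held the colorectal ones by 2 each.

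The epithelial and mesenchymal groups differed between lines as well as between tissues. The epithelial junction and keratin group held 1 ovarian and 19 colorectal regions of 117 (16.2%), led by CGN, the tight junction protein cingulin, with 0, 1, 0 and 0 against 13 and 10 peaks. PATJ, a polarity protein gene, had 3, 3, 0 and 0 against 12 and 10, and SPINT1, a protease inhibitor gene, had 0 in every ovarian list against 3 and 4. KRT7, a keratin of ductal epithelia, went the other way with 9, 9, 5 and 5 against 2 and 0. The sum of the group's peaks was 39 and 40 for the OVCAR8 lists, 18 and 16 for SKOV3, and 83 against 38 for LOVO and RKO, so RKO lay within the ovarian range. The median log2 difference of its 6 tested genes was -0.04, beside -0.08 over all genes tested. The mesenchymal and matrix group held 4 ovarian and 2 colorectal regions of 188, or 2.13% and 1.06%, the former near the 1.65% over all single-gene regions. Its 12 tested genes had a median log2 difference of 1.85. TWIST2, a mesenchymal transcription factor, had 5, 3, 3 and 3 against 0 and 0, and LOXL2, a collagen crosslinking enzyme, had 1, 1, 13 and 10 against 0 and 0. ZEB1, a repressor of epithelial genes, had 14, 13, 11 and 10 in the ovarian lists, 0 in LOVO and 20 in RKO. RKO thus lay with the ovarian lines in ZEB1, and its group sum (56) lay between LOVO (17) and the ovarian lists (75 to 104). COL6A1, a collagen gene, held both colorectal regions of the group, with 0, 0, 6 and 6 against 7 and 8 peaks.

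Wnt and receptor genes were mixed. The Wnt group held 3 ovarian and 14 colorectal regions of 99. ZNRF3, a ubiquitin ligase that removes Wnt receptors, had 1, 1, 2 and 1 against 5 and 7, while CD44, an adhesion receptor, had 5, 5, 6 and 7 against 5 and 3 and held 2 ovarian regions. TCF7, a Wnt transcription factor, had 2 colorectal regions and BCL9L, a beta-catenin cofactor, had 1 ovarian region. The receptor group held 3 ovarian and 10 colorectal regions of 167. ROR1 had 0 in every ovarian list against 7 and 3, with 3 colorectal regions, and BMPR1A and INSR had 2 each. EPHA2, EGFR and ERBB4 held 1 ovarian region each, and EPHA2 had 11, 10, 8 and 7 against 5 and 6 peaks. In the inflammatory group, with 3 ovarian and 3 colorectal regions of 58, RELA, a subunit of NF-kB, held 2 ovarian regions with 7, 6, 5 and 6 against 4 and 4 peaks. NFKBIA, its inhibitor, held 1 region of each kind, and TNFAIP3 and SOD2 held 1 colorectal region each. The HOX clusters held 1 ovarian region, in HOXC4, and 2 colorectal regions, in HOXA11-AS and HOXB9, of 47. No HOX gene reached the minimum for the test, and the blood and endothelial group held 0 regions of either kind.

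The m6A machinery and DNA repair groups held more colorectal than ovarian regions, as single-gene regions did in general. The m6A group held 1 ovarian and 16 colorectal regions of 107 (14.95%), beside 19 core regions. ZC3H13, a subunit of the methyltransferase complex, had 4, 3, 8 and 8 ovarian peaks and 13 and 18 colorectal ones, with 5 colorectal regions. YTHDC1, a nuclear reader, had 2, 2, 6 and 6 against 8 and 9, and FTO, a demethylase, had 2, 2, 7 and 8 against 8 and 5, so the lists of FTO overlapped. RBM15, an adaptor of the complex, held the ovarian region. The DNA repair group held 0 ovarian and 19 colorectal regions of 124 (15.3%). RAD50, a subunit of the break-sensing MRN complex, had 1 in every ovarian list against 6 and 13, and TP53BP1, a break-signalling protein, had 5, 5, 3 and 3 against 12 and 12. XRCC4, an end-joining factor, had 1 in every ovarian list against 3 and 4. Beside the 10.6% over all single-gene regions neither share was tested, and the median log2 differences of the m6A and DNA repair groups, -0.13 and -0.03, lay near the -0.08 over all genes.

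Nuclear long non-coding RNAs held 3 ovarian and 11 colorectal regions of 173. All 3 ovarian regions lay in SNHG14, an imprinted host of small nucleolar RNAs, with 3, 3, 5 and 5 peaks against 0 and 0, although the list labelled RKO knockdown had 14. PVT1 had 3 colorectal and no ovarian regions, with 26, 21, 12 and 10 ovarian peaks against 9 and 11, of which only the counts scaled for list length put every ovarian list above both colorectal lists. NEAT1, a scaffold of nuclear paraspeckles, had 0, 1, 0 and 1 against 3 and 2 and held 1 colorectal region.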

How the data were processed

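Chromatin-associated RNA with added spike-in was pulled down with an antibody to m6A, and stranded libraries were read as pairs, per the labels' protocols. The submitters' processing notes name build hg38 and the tools MACS2 2.2.7.1, HISAT2 2.1.0, Bowtie2 2.4.2 and Trim Galore 0.6.6, without saying what each did. Each ovarian library has its own deposited list, with a fold enrichment (a linear ratio) per peak and −log10 p and q-values, which were not used. Each colorectal group has 1 deposited list, with a score that no header explains. Its scale is unknown. All its peak names cite replicate 1, and the sources used here do not say whether replicate 2 was used. Read depth is unknown, so no counting interval is given.

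Peaks of at least 3 were merged by strand with an overlap of 1 bp (Python 3.11.15). Regions and peaks were assigned to a gene of RefSeq (GRCh38.p14, 59080 genes) if they overlapped only that gene's body, on either strand. A strand was known for 27196 genes. Peaks per gene were scaled to the mean number of gene-assigned peaks, averaged by line and tested with limma 3.58.1 (lmFit, eBayes with trend, Benjamini-Hochberg) as log2 values computed from the deposited lists. The test was tried on simulated data. Other values used exact permutation tests.

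Named genes are the 12 with most ovarian and the 12 with most colorectal regions, the 3 of each kind per gene group, the 5 strongest regions of each kind, the fixed markers and METTL3, leaving out genes of the X-inactivation centre and the Y chromosome. Some genes that this rule picks are not reported here. The genes given as holding both kinds of region, and those at the edge of the minimum, were picked after their values were seen. Members and gene lists were chosen with earlier results of these data known. Alternatives changed the minimum, overlap, strand rule, list length, pseudocount, filter, scaling and lists left out.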

Additional observations from a re-analysis of the deposited data

How the results depend on the processing

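Of 86 alternatives, 68 kept the result: direction and side of the threshold for tests, within 1.5 times for counts, and within 1 SD between replicate lists (1.06 percentage points) for peak sharing. The recovery, protein-coding share and peak width tests had a smallest possible exact permutation p of 0.133 or more. Only their direction could therefore change. Each setting of the gene test is counted once per direction. The count of 68 is thus no measure of how robust the results are. No result reversed as defined above, but the ovarian part of peak sharing changed order. Ovarian lines shared 45.42% with each other, against 45.67% between tissues, in the chosen setting. The ovarian value was higher with no minimum (47.89% against 46.45%) and with equal list lengths (45.32% against 44.13%). It was also higher with 50% of the peak covered (41.45% against 40.55%). It stayed lower when either OVCAR8 list or SKOV3 replicate 2 was left out. At a minimum of 5 the ovarian and colorectal regions numbered 623 and 4383, with fewer peaks entering. Ovarian regions numbered 1820 when absence meant under 50% coverage, and colorectal regions 3781 with equal list lengths. Leaving out a list gave 1351 to 1981 ovarian regions and 7152 to 17630 colorectal regions, highest without RKO (1981 ovarian) and without LOVO (17630 colorectal), since fewer lists had to match. Mean peak sharing within minus between tissues was 3.04 percentage points, 4.24 with no minimum, 4.11 with 50% of the peak covered and 4.97 to 5.49 with an ovarian list left out. As a Jaccard index, added after seeing the data, it was 9.43 with all peaks and 7.49 with equal list lengths, a gap that LOVO with RKO made. With the line as a random block, which enters replicate lists of a line separately, limma called 17 and 33 genes rather than 0 and 0. The other settings called none. Unadjusted calls ranged from 53 of 1001 tested genes to 1492 of 9170, with 332 of 3826 in the chosen setting. The extremes were the filters at a mean of at least 5 and of at least 0.5 scaled peaks, so the numbers tested differ. No paired analysis was possible because LOVO and RKO have 1 list each, with no replicate number to match. Read depth behind a peak is unknown, and list length limits what absence can show.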
